A study of Homo sapiens with 40 samples.

Results

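The genes described here are 8 genes of the response to low oxygen, ADM, NDRG1, SIAH2, VEGFA, HIF1A, P4HA1, PDK1 and EGLN3, followed in myeloma and lymphoma cells in which caspase-10 (CASP10) was knocked down. They were picked with earlier results of these data in view, and their log ratios in myeloma cells were part of what picked them, so their response in myeloma is given as a description without a test. The comparisons between lines, hairpins, days and Cy3 channels use the same arrays, so their p-values are no independent support. Probes were taken by gene symbol: 7 of the 8 genes have a probe and EGLN3 was not analysed here, which leaves 20 of the 15246 probes and 7 of the 4604 named genes. The study hybridised 40 2-colour lymphochip arrays, a spotted array rich in lymphoid genes, to ask which genes respond to loss of CASP10 in myeloma. The lines were SKMM1, H929 and KMS12, from human multiple myeloma, and as controls of the submitters OCI-Ly7 and OCI-Ly19, from human lymphoma. All lines carried a retroviral vector with a doxycycline-inducible short hairpin RNA and were selected with puromycin. On every array the Cy5 channel held RNA of cells given 20 ng/ml doxycycline, for 24 to 120 hours (days 1 to 5), and 50 µg of total RNA was labelled with each dye.

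The groups were as follows. SKMM1 with hairpin shCasp10-2 was set against SKMM1 induced to express a control shRNA on 4 arrays (days 1 to 4), where both channels had received doxycycline. In all other groups the Cy3 channel held uninduced cells of the same line, hairpin and day, without doxycycline. These were SKMM1 with shCasp10-2 (12 arrays, repeats 1 to 3), H929 with shCasp10-3 (4 arrays) and with shCasp10-2 (8 arrays, repeats 1 and 2), KMS12 with shCasp10-3 (4 arrays) and with shCasp10-2 (4 arrays), and OCI-Ly7 and OCI-Ly19 with shCasp10-2 (2 arrays each, days 3 and 4). A course is 1 line, hairpin and repeat over days 2 to 4, and it is the replicate: there were 8 myeloma courses against uninduced cells, 1 against the control shRNA and 2 lymphoma courses. The design text names biological repeats for H929 and SKMM1 only, and days of a course may share a culture, so p-values measure the spread between these samples. Doxycycline and shRNA expression cannot be told apart in the groups set against uninduced cells, and since no array had its dyes swapped, each log ratio includes any dye effect.

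All values are deposited log ratios, read as log2 of Cy5 over Cy3. Their base, centring and direction are not stated, and the direction is likely from the dyes in the labels. They give no level of a gene, so a level of 1 gene cannot be set against that of another, and the labelled cell types could not be checked against the level of their markers. An array is called wide here if more than 10% of its probes lay beyond 3 in size; of the 40 arrays 12 were wide, 10 with the tail below 0 and 2 with it above 0. All 3 arrays of SKMM1 repeat 2 on days 2 to 4 were wide, and array medians ran between -2.15 and 0.36. Of 780 pairs of arrays, 87 had a Pearson's r under -0.3 over all probes, the lowest being -0.52. SKMM1 repeats 2 and 3 have opposite tails and labels that differ only in the repeat number, so their direction is not settled, and values with either sign turned are given where they move a result. CASP10 itself averaged -0.63 ± 0.59 (SD, n = 8) over the myeloma courses and -0.25 ± 0.19 (SD, n = 7) without wide arrays, and it was below 0 on 29 of 32 myeloma arrays. On both arrays labelled OCI-Ly7 it lay above 0, at 2.04 and 1.50, which goes against the knockdown in their label. Day 3 of these is a wide array with its tail above 0, and on day 4 7.95% of the probes were above 3. In H929 with shCasp10-2 the lowest CASP10 value was -5.6 with all arrays and -0.38 without wide arrays. Whether CASP10 follows the tail of an array was not tested.

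As background, cells sense oxygen through prolyl hydroxylases such as EGLN3, which mark the alpha subunit of hypoxia-inducible factor 1 (HIF1A) for destruction by the VHL ubiquitin ligase while oxygen is present. When oxygen falls, HIF1A is kept and, with its partner ARNT, binds short DNA elements with the core ACGTG or GCGTG near genes for blood vessel growth, glycolysis and matrix synthesis. SIAH2 is a ubiquitin ligase that directs prolyl hydroxylases to the proteasome, so it acts upstream of HIF1A, while ADM, VEGFA, NDRG1, P4HA1 and PDK1 are transcribed targets. Myeloma cells grow in bone marrow, a tissue known for low oxygen.

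The elements by which HIF1 is known to act are shown for the 3 members whose log ratios the results turn on and whose promoter holds a match. The sequences are the 250 bases before the gene's start in RefSeq (GRCh38.p14), 5′ to 3′ on the gene's strand, with each ACGTG or GCGTG on either strand in capitals:
SIAH2: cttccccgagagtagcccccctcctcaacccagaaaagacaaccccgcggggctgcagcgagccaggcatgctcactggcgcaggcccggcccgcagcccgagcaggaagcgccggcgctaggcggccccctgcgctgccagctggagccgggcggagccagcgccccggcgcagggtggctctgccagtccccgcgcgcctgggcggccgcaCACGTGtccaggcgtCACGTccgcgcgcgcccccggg
P4HA1: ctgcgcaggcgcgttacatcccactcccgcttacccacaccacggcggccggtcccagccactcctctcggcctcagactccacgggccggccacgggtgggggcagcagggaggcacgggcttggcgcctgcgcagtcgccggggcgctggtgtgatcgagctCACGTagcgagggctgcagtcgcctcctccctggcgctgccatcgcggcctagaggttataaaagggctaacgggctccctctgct
ADM: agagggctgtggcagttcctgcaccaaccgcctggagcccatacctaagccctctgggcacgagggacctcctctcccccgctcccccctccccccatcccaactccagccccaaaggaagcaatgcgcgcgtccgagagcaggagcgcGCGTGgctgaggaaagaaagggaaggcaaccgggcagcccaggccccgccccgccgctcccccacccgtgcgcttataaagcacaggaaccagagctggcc
The SIAH2 window, chr3:150763170-150763419 (minus strand), holds ACGTG 3 times, at positions -37, -36 and -22 from the start; the first and second overlap on opposite strands and spell CACGTG, which is also the E-box that MYC is known to bind. The P4HA1 window, chr10:73096867-73097116 (minus strand), holds 1 ACGTG at -86, and the ADM window, chr11:10304823-10305072 (plus strand), 1 GCGTG at -101. Of 35116 RefSeq promoter windows of this length, 18.5% hold ACGTG, 32.2% hold GCGTG and 43.2% hold either, on either strand. Windows were listed for 6 of the 8 genes, 8 windows in all, and 5 of the 8 hold a match; VEGFA and NDRG1 are named only. A match describes letters and not a bound site, and these arrays hold no binding data.

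SIAH2, the ubiquitin ligase upstream of HIF1A, was the member whose sign was the same on the most arrays. In SKMM1 against the control shRNA it was -0.56, -0.42, -0.60 and -1.15 on days 1 to 4. On the 12 SKMM1 arrays against uninduced cells it ran between -1.30 and 0.47, with a median of -0.54. All 4 arrays against the control shRNA were thus below 0, as were 11 of the 12 against uninduced cells, and the 2 ranges overlap. In H929 the 4 shCasp10-3 arrays lay between -0.26 and -0.12 and the 8 shCasp10-2 arrays between -1.76 and -0.04. In KMS12 with shCasp10-3 it was -0.21, -0.27, -0.35 and -0.28 (days 2 to 5). In KMS12 with shCasp10-2 it was -1.46, -0.90, -0.73 and -0.59 (days 1 to 4). Here shCasp10-2 was the lower on each shared day, but each hairpin is 1 course and days 1 and 2 of shCasp10-2 were wide arrays. The share of all features that separate the hairpins in KMS12 was not counted, so nothing is read from it. The lymphoma arrays were below 0 as well, at -0.29 and -0.14 on days 3 and 4 for those labelled OCI-Ly7 and at -0.61 and -0.68 for OCI-Ly19.

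Over the 8 myeloma courses SIAH2 averaged -0.44 ± 0.24 (SD), with 8 of 8 courses below 0, and without wide arrays -0.49 ± 0.26 (SD, n = 7). It was below 0 on 31 of 32 myeloma arrays and, among those that were not wide, on 21 of 21, where it also lay below the array's own median each time. The exception was day 4 of SKMM1 repeat 3, at 0.47, a wide array with its tail above 0. The counts of SIAH2 hold for the signs as deposited. If the sign of SKMM1 repeat 2 (-0.483) or repeat 3 (-0.295) were turned, that course mean would lie above 0. With repeat 3 turned, its arrays of days 2 and 3, which were not wide, would lie above 0 as well. SIAH2 was the only member below 0 in all 8 courses, where 3.01% of the 9681 features (named genes and unnamed probes) were; without wide arrays 3 of 7 members, SIAH2, ADM and NDRG1, were below 0 in all 7 courses, where 4.19% of features were. Those values chose the members, so nothing is read from these counts. By the mean over arrays that were not wide, the lowest were SKMM1 against the control shRNA (-0.68 ± 0.32, SD, n = 4), SKMM1 against uninduced cells (-0.70 ± 0.41, n = 7), KMS12 with shCasp10-2 (-0.66, n = 2) and OCI-Ly19 (-0.64, n = 2), which differ by less than their spread. H929 with shCasp10-2 (-0.37 ± 0.22, n = 6), KMS12 with shCasp10-3 (-0.28 ± 0.059, n = 4), H929 with shCasp10-3 (-0.19, n = 2) and the OCI-Ly7 label (-0.14, 1 array) came after.

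The 5 SIAH2 probes mostly moved together. Over the 28 arrays that were not wide, the 6 pairs among probes 17013_1, 27481_1, 27486_1 and 27498_1 correlated with Pearson's r between 0.69 and 0.93, while probe 24751_1 correlated with these 4 at 0.31 to 0.54; these are descriptions across arrays that share lines and courses. On 23 of these 28 arrays all 5 probes were below 0. Probe 24751_1 reached -6.34 on day 1 of H929 and -5.53 on day 1 of KMS12 with shCasp10-2, both wide arrays, and accounts for the low gene means there. On day 3 of SKMM1 repeat 3, by contrast, the lowest SIAH2 mean of an array that was not wide (-1.30) came with all 5 probes low, and on day 4 of the same course all 5 were above 0.

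HIF1A, the oxygen-regulated subunit itself, gave no such pattern. Its course means ran between -2.18 in SKMM1 repeat 2 and 1.52 in SKMM1 repeat 3, and averaged -0.43 ± 1.11 (SD, n = 8) with all arrays and 0.11 ± 0.51 (SD, n = 7) without wide arrays. Against the control shRNA it was 0.24, -0.065, -0.10 and -0.17 on days 1 to 4. The 4 HIF1A probes split into pairs. Probes 24995_1 and 33901_1 had medians of -3.79 and -4.30 on the 10 wide arrays with the tail below 0 and medians of 2.85 and 5.38 on the 2 with the tail above 0, so that they followed the tail of the array. Probes 16766_1 and 27275_1 had medians of 0.33 and 0.20 on those 10 arrays and stayed between -0.99 and 1.49 on all wide arrays. Over the arrays that were not wide the first pair correlated at r = 0.77 and the second at 0.57, and across the pairs r lay between -0.39 and -0.13. A gene mean of HIF1A on a wide array is therefore the mean of probes that disagree by a median of 6.03.

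**Figure D1:**
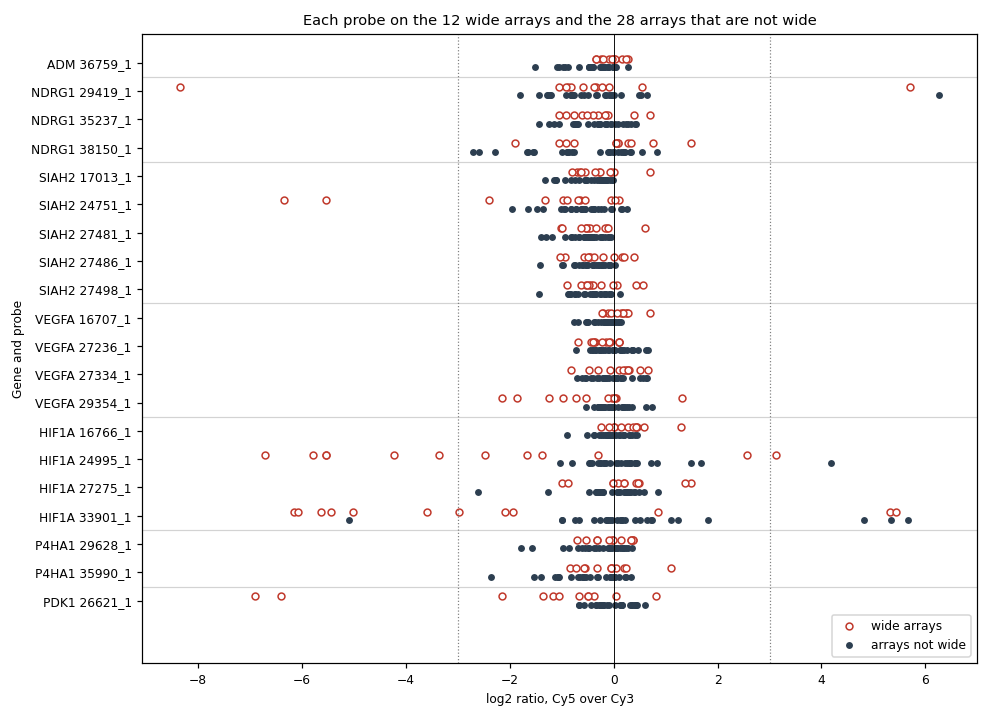
Log ratios (log2, Cy5 over Cy3; x axis) of the 20 probes of the 7 measured genes (rows), with 1 point per array: open red for the 12 wide arrays, dark for the 28 others; dotted lines mark -3 and 3. Most probes stay within 3 on all arrays, while HIF1A probes 24995_1 and 33901_1 are beyond it on 8 and 12 arrays, and NDRG1 29419_1 reaches 5.71 and 6.26 on the arrays labelled OCI-Ly7.

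ADM encodes adrenomedullin, a secreted peptide that widens blood vessels, and has 1 probe. In SKMM1 against the control shRNA it was -1.09, -1.51, -0.98 and -0.39 on days 1 to 4. In SKMM1 against uninduced cells it was -0.93, -0.87 and -1.05 on days 2 to 4 of repeat 1, -0.095, 0.28 and -0.34 in repeat 2 and -0.23, -0.25 and -0.25 in repeat 3. On days 2 to 4 the values of repeat 1 all lay within the range seen against the control shRNA, and those of repeats 2 and 3 all lay above it. In H929, ADM lay between -0.20 and 0.24 with shCasp10-3 and between -0.48 and 0.04 with shCasp10-2. In KMS12 with shCasp10-3 it was -0.18, -0.26, -0.47 and -0.44 (days 2 to 5). In KMS12 with shCasp10-2 it was 0.022, -0.04, -0.11 and -0.12 (days 1 to 4). Here shCasp10-3 was the lower hairpin, opposite to SIAH2 in the same arrays. Each hairpin is 1 course, and days 1 and 2 of shCasp10-2 were wide arrays. The share of all features that separate the hairpins in KMS12 was not counted, so nothing is read from this. The myeloma courses gave an ADM mean of -0.25 ± 0.31 (SD, n = 8), 7 of 8 lying below 0, and -0.30 ± 0.29 (SD, n = 7) without wide arrays. In lymphoma it was -0.21 and 0.28 on days 3 and 4 under the OCI-Ly7 label and -0.005 and -0.47 in OCI-Ly19.

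VEGFA, the growth factor that drives new blood vessels, stayed near 0. It averaged -0.029 ± 0.19 (SD, n = 8) over the myeloma courses, with 4 of 8 below 0, and 0.028 ± 0.19 (SD, n = 7) without wide arrays. Its values against the control shRNA were close together, at -0.21, -0.23, -0.24 and -0.20 on days 1 to 4. The 4 VEGFA probes disagreed in sign on most arrays: on only 3 of the 28 arrays that were not wide did all 4 share 1 sign, and their pairwise r ran between -0.17 and 0.41.

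NDRG1, a cytoplasmic protein induced by hypoxia and by differentiation, was lower in some SKMM1 courses than in others. Against the control shRNA it was -1.07, -1.62, -1.75 and -1.40 on days 1 to 4. Against uninduced cells it was -1.44, -1.23 and -1.31 on days 2 to 4 of repeat 1, -2.79, -0.43 and -0.91 in repeat 2, and 0.089, -0.48 and -0.29 in repeat 3. Repeat 3 lay above all 4 arrays against the control shRNA. Of these arrays, days 2 and 3 lay within the range of the uninduced set only through its -2.79, the next lowest there being -1.44. Days 1 and 4 lay within that range without it. The -2.79 rests on 1 probe, 29419_1, which read -8.34 on that wide array while the other 2 probes read -0.30 and 0.27. In SKMM1 repeat 1 and against the control shRNA all 3 probes were below 0 on all 7 of the arrays named, between -2.71 and -0.69. In H929, NDRG1 ran between -0.23 and 0.67 with shCasp10-3 and between -0.86 and 0.17 with shCasp10-2, and in KMS12 between -0.80 and 0.24 with shCasp10-3 and between -0.36 and 0.12 with shCasp10-2. The myeloma courses averaged -0.54 ± 0.55 (SD, n = 8), with 7 of 8 below 0, and -0.46 ± 0.43 (SD, n = 7) without wide arrays.

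In lymphoma NDRG1 went the other way, at 2.53 and 2.34 on days 3 and 4 under the OCI-Ly7 label and at 0.39 and 0.33 in OCI-Ly19. It was the 1 member of 7 above 0 on all 4 lymphoma arrays, where 26.9% of the features were. The OCI-Ly7 values again rest mainly on probe 29419_1, at 5.71 and 6.26, against 0.39 and -0.06 for 35237_1 and 1.49 and 0.83 for 38150_1. Day 3 of that pair is a wide array with its tail above 0; on day 4, which is not counted as wide, 7.95% of the probes were above 3.

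**Figure D2:**
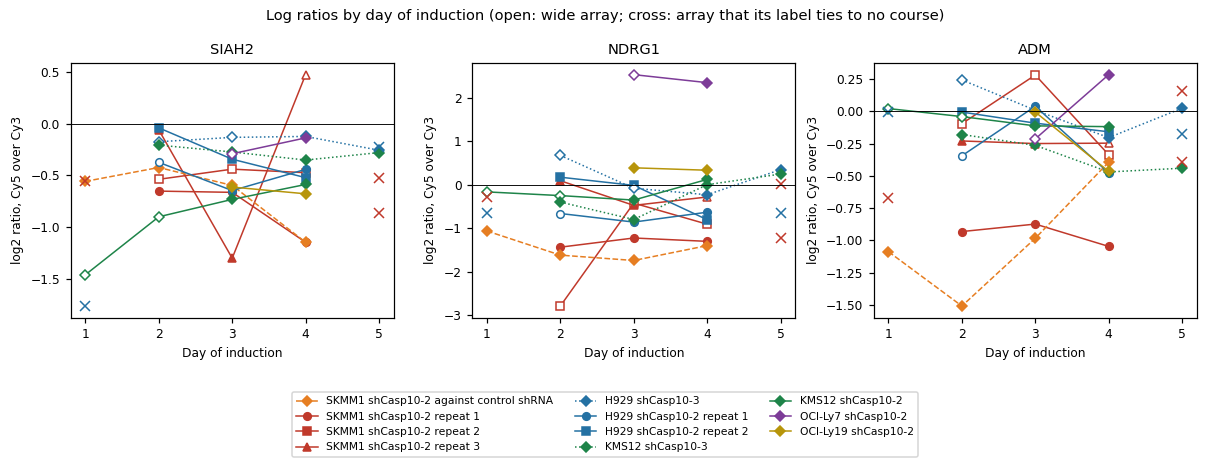
Log ratios (log2, Cy5 over Cy3; y axis) of SIAH2, NDRG1 and ADM by day of induction (x axis), with 1 line per course; open points are wide arrays and crosses are arrays that their label ties to no course. SIAH2 is above 0 on 1 array, day 4 of SKMM1 repeat 3, NDRG1 separates the OCI-Ly7 label (2.53 and 2.34) from all others, and ADM is lowest in SKMM1 repeat 1 and against the control shRNA.

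P4HA1 encodes the catalytic subunit of the prolyl hydroxylase that matures collagen, and its 2 probes agreed in sign on 22 of the 28 arrays that were not wide (r = 0.86). In SKMM1 against the control shRNA it was 0.013, -0.68, -1.19 and -0.86 on days 1 to 4. Against uninduced cells it was -0.53, -0.45 and -0.84 in repeat 1, -0.68, -0.025 and -0.29 in repeat 2 and 0.15, 0.20 and 0.73 in repeat 3, on days 2 to 4. In H929 it was above 0 on all 4 shCasp10-3 arrays (0.022 to 0.28) and below 0 on all 8 shCasp10-2 arrays (-1.05 to -0.14). In KMS12 it ran from -0.13 to 0.19 for shCasp10-3 and from -0.23 to 0.046 for shCasp10-2. The share of all features that separate the hairpins in this way was not counted, so nothing is read from it. The lowest P4HA1 values of the study were those of OCI-Ly19, at -1.49 and -2.07 on days 3 and 4, with both probes between -2.35 and -1.39; the arrays labelled OCI-Ly7 were at -0.64 and -0.021.

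PDK1, the mitochondrial kinase that inhibits pyruvate dehydrogenase and so keeps pyruvate from the citric acid cycle, has 1 probe, and its low values lay on wide arrays. It read -6.90 on day 2 of H929 repeat 1 and -6.41 on day 1 of H929, where 25.1% and 46.4% of all probes were beyond 3. Over the 10 wide arrays with the tail below 0 it was below 0 on all 10, with a median of -1.11, while on the 28 arrays that were not wide it was below 0 on 14 and ran between -0.68 and 0.60. The course average moved with these arrays, at -0.65 ± 0.87 (SD, n = 8) with all arrays and -0.072 ± 0.32 (SD, n = 7) without them. Against the control shRNA it was 0.36, 0.45, 0.40 and -0.18 on days 1 to 4. On arrays of RNA pooled from whole cultures, fewer cells of a kind and less RNA per cell cannot be told apart for any of these genes.

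**Figure D3:**
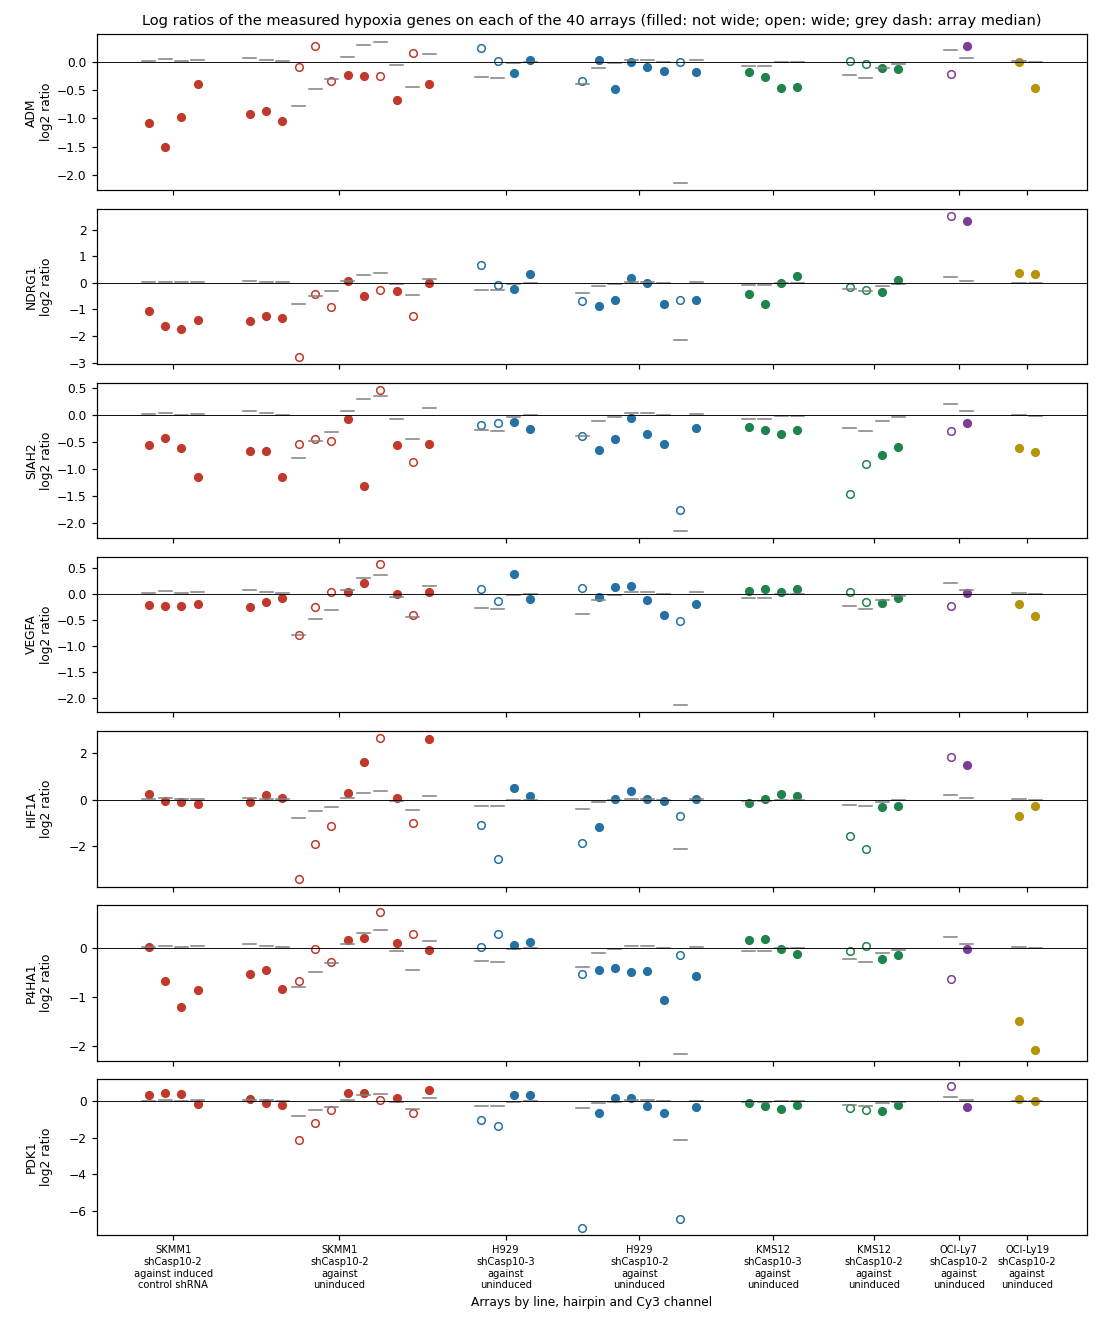
Log ratio (log2, Cy5 over Cy3; y axis, with its own scale per gene) of the 7 measured genes on each of the 40 arrays, grouped by line, hairpin and Cy3 channel (x axis) and, within a group, by repeat and day; filled points are not wide, open points wide, grey dashes the array median. SIAH2 lies below 0 on nearly all arrays, ADM and NDRG1 are lowest in SKMM1, and the lowest HIF1A and PDK1 values sit on open points.

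The members did not vary as a single block. Over the 28 arrays that were not wide, and as a description across arrays that share lines and courses, the closest pairs by Pearson's r were ADM with NDRG1 (0.70) and VEGFA with P4HA1 (0.69). SIAH2 was most like NDRG1 (0.45), HIF1A most like P4HA1 (0.34) and PDK1 most like HIF1A (0.30), while ADM and PDK1 ran against each other (-0.44). In SKMM1 repeat 1, 5 of 7 members (ADM, NDRG1, SIAH2, VEGFA and P4HA1) were below 0 on all of days 2 to 4, where 26.8% of features were. Against the control shRNA 4 of 7 (ADM, NDRG1, SIAH2 and VEGFA) were below 0 on all 4 arrays, where 22.5% of features were. These 2 sets share the SKMM1 line and hairpin, and myeloma values helped choose the members. Among all named genes, those whose log ratio tracked the mean of the 7 members most closely over these 28 arrays were DENND2D (r = 0.81), GBE1 (0.79), CCL5 (0.76), FN1 (0.75) and SLK (0.74). GBE1 makes branch points in glycogen, CCL5 is a chemokine and FN1 is fibronectin, a matrix protein. The mean of the members was not scaled, so members with wider log ratios weigh more in it. On these arrays the widest of their probes were 33901_1 of HIF1A (SD 2.05) and 29419_1 of NDRG1 (SD 1.42). How far these r values follow those 2 genes was not tested.

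SKMM1 against the control shRNA was compared with SKMM1 against uninduced cells, in which doxycycline was in 1 channel only. With limma on course means of days 2 to 4, ADM differed by -0.55 (SE 0.42, adjusted p = 1.00), at -0.96 against the control shRNA and -0.95, -0.05 and -0.24 in the 3 courses against uninduced cells. P4HA1 differed by -0.72 (SE 0.65, adjusted p = 1.00), at -0.91 against -0.61, -0.33 and 0.36. These had the smallest p among the 7 members, whose differences ran between -0.72 and 0.57, and 0 of 7 passed, where 0.0% of all features did (limma, 0 of 9681, with 45 at an unadjusted p under 0.05). A single course has no spread of its own and was assumed to vary like the others. Without wide arrays, on single arrays, 0.0% of features passed and ADM differed by -0.33 (SE 0.31) and P4HA1 by -0.65 (SE 0.41).

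By line, SKMM1 was set against the mean of H929 and KMS12. NDRG1 differed by -0.70 (SE 0.53, limma adjusted p = 1.00), with SKMM1 courses at -1.32, -1.38 and -0.23 against -0.72, -0.22 and 0.12 in H929 and -0.16 and -0.40 in KMS12. ADM differed by -0.26 (SE 0.27, adjusted p = 1.00), and its difference is that of SKMM1 repeat 1: without that course it was 0.008. Of the members 0 of 7 passed, with 0.0% of features (105 at an unadjusted p under 0.05). On single arrays without wide arrays NDRG1 was at -0.48 (SE 0.36, adjusted p = 0.47) and ADM at -0.44 (SE 0.22, adjusted p = 0.26); without SKMM1 repeat 1 as well, NDRG1 was at 0.15. With the sign of SKMM1 repeat 2 turned NDRG1 was at 0.22. When courses were weighted by their agreement with the others (array weights), NDRG1 at -0.99 (SE 0.24) and ADM at -0.77 (SE 0.12) were among the 14.3% of features past the threshold. That fit gave SKMM1 repeat 1 a weight of 25.1, against 0.085 and 0.30 for repeats 2 and 3, and the SKMM1 values helped choose the members, so nothing is read from it.

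The hairpins shCasp10-3 and shCasp10-2 were compared within H929 and KMS12. All 7 members had an estimate above 0, that is, higher with shCasp10-3, where 50.6% of all features were below 0, and none passed (0.0% of features, 266 at an unadjusted p under 0.05). SIAH2 differed by 0.34 (SE 0.32, limma adjusted p = 1.00) and P4HA1 by 0.48 (SE 0.53, adjusted p = 1.00). On single arrays without wide arrays ADM (-0.13) and NDRG1 (-0.044) were below 0 and 5 of 7 members above, where 41.1% of all features were below 0. Shares of members are given beside the share of all features as a description, since some pairs of members vary together.

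Over days 2 to 4 of the myeloma courses, HIF1A changed by 0.62 per day (SE 0.21, unadjusted p = 0.020, limma adjusted p = 0.40) and ADM by -0.092 per day (SE 0.083, adjusted p = 0.53). The median of all features was itself 0.25 per day, and 0.0% passed (1066 at an unadjusted p under 0.05). On single arrays without wide arrays the HIF1A slope was 0.13 (SE 0.16, adjusted p = 0.84), beside a median of 0.004 over all features, and SIAH2 had the smallest p, with -0.20 per day (SE 0.098, adjusted p = 0.68). The 2 fits differ both in the arrays kept and in the use of single arrays, and which of these moved the HIF1A slope was not tested. The part of the 2 HIF1A probes that followed the tails of wide arrays was not tested either.

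Myeloma was compared with lymphoma on days 3 and 4, where both were sampled. NDRG1 was lower in myeloma by a difference of -1.89 (SE 0.52, limma unadjusted p = 0.0072, adjusted p = 0.64). The median of all features was -0.375 and their 5th percentile -2.605, or -1.756 on single arrays without wide arrays. NDRG1 lay above that percentile in both fits, within the spread of all features. P4HA1 differed by 0.89 (SE 0.46, adjusted p = 0.64), and 0 of 7 members passed, where 0.0% of features did (654 at an unadjusted p under 0.05). Without wide arrays, on single arrays, 0.0103% of features passed and 0 of 7 members, with NDRG1 at -1.73 (SE 0.41, adjusted p = 0.11) and P4HA1 at 0.80 (SE 0.38, adjusted p = 0.30). Each of these rests on 1 lymphoma line. With OCI-Ly19 left out, the NDRG1 difference was -2.93 (SE 0.42, adjusted p = 0.041, where 0.847% of features passed). With the OCI-Ly7 label left out, P4HA1 on single arrays was 1.52 (SE 0.35, adjusted p = 0.027, where 4.69% passed), and with OCI-Ly19 left out it turned to -0.24. A single lymphoma course has no spread of its own and is assumed to vary like the others, so these values compare myeloma with 1 course. The size of the NDRG1 value comes mainly from probe 29419_1, under a label that CASP10 goes against. With both lymphoma lines and all arrays, all 3 NDRG1 probes were lower in myeloma. They differed by -3.75 (29419_1), -1.32 (38150_1) and -0.60 (35237_1), and none passed (limma adjusted p = 0.61 for each). In the lymphoma response itself NDRG1 was at 1.40 (SE 0.46, unadjusted p = 0.017, limma adjusted p = 0.57) and P4HA1 at -1.05 (SE 0.41, unadjusted p = 0.036, adjusted p = 0.57), and 0 of 7 passed, beside 0.0% of features (836 at an unadjusted p under 0.05). The 5th and 95th percentiles of all features there were -0.673 and 2.182, with NDRG1 between them and P4HA1 below. On single arrays without wide arrays 0.0516% of features passed, and NDRG1 and P4HA1 had adjusted p = 0.089 and 0.091. Under the same assumption, NDRG1 on the 1 remaining OCI-Ly7 array was 2.34, past the threshold with 8.08% of features, and P4HA1 in the OCI-Ly19 course was -1.78, past it with 7.73%. SIAH2 and P4HA1 were below 0 on all 4 lymphoma arrays, where 12.3% of features were. SIAH2 did not differ detectably between myeloma and lymphoma, with -0.053 (SE 0.26) on course means and -0.21 (SE 0.22) on single arrays without wide arrays.

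**Figure D4:**
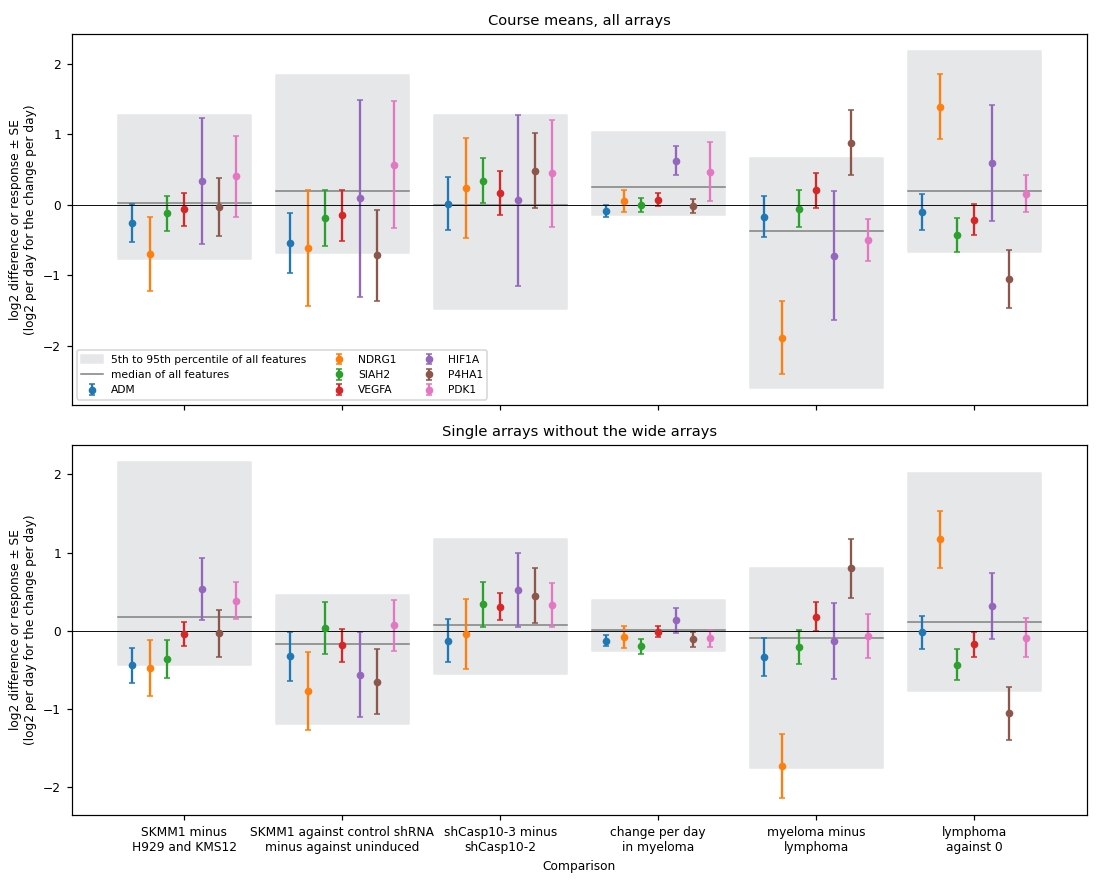
Estimates of the 7 members (points, ± SE; log2 difference, log2 response or log2 per day, y axis) in 6 comparisons (x axis), on course means of all arrays (top) and on single arrays without wide arrays (bottom); grey bands span the 5th to 95th percentile of all features and grey lines their median. Outside the band lie P4HA1 in lymphoma (-1.05 top, -1.06 bottom), in myeloma minus lymphoma (0.89 top) and against the control shRNA (-0.72 top), and ADM (-0.44) and NDRG1 (-0.48) in SKMM1 minus the other lines (bottom).

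In the myeloma response, limma called 0 of 7 members on course means of all arrays, where 0.0% of features passed (542 at an unadjusted p under 0.05). On single arrays without wide arrays it called 1 of 7, SIAH2, where 1.71% of features passed (166, of which 45 were higher and 121 lower); the members were chosen on this contrast, so nothing is read from that count. Unweighted course means without wide arrays, in which the course is the replicate, gave 0.0% of features (0 of 9681, smallest limma adjusted p = 0.33, 1148 at an unadjusted p under 0.05), so the calls given for genes of the pathway are those of the single-array fit. Among other genes of the pathway, the oxygen sensing and HIF regulators had 15 of 20 listed genes measured, and 9 of the 15 were below 0 in that fit with 0 called and a median of -0.021. Their lowest was ELOB, a subunit of the VHL ligase, at -0.31 (SE 0.10, adjusted p = 0.12), and their highest CITED2, which competes with HIF1A for its coactivators, at 0.31 (SE 0.33, adjusted p = 0.70). Other hypoxia-induced genes had 28 of 54 measured, 18 of them below 0, with a median of -0.055. PLOD1, a lysyl hydroxylase of collagen, fell by 0.46 (SE 0.10, adjusted p = 0.031), and ZNF395 fell by 0.45 (SE 0.11, adjusted p = 0.042); the other 26 did not pass. Of 22 hypoxia-induced glycolysis genes 18 were measured and 17 were below 0, with a median of -0.18. PKM, the last kinase of glycolysis, fell by 0.51 (SE 0.12, adjusted p = 0.039) and ENO2, an enolase, fell by 0.51 (SE 0.12, adjusted p = 0.041), while SLC2A1, the glucose transporter, was at -0.45 (SE 0.12, adjusted p = 0.062). The median of all features in that fit was 0.013, with 47.6% below 0. The calls of that fit, SIAH2 among them, hold for the signs as deposited. That fit kept an SKMM1 course of unsettled direction, and with the sign of this course turned, calls were found in lymphoma only. The pathway lists were written with earlier results of these data known, so nothing is read from their counts or calls. On unweighted course means 0 genes of these lists passed, with or without wide arrays.

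No cell marker was called in the same fit. Below 0 were 11 of 12 T and NK cell markers (median -0.20), 3 of 5 measured myeloid markers (-0.10) and 5 of 9 plasma cell markers, the cells' own type (-0.032), beside 47.6% of all features. The marker lists too were chosen with earlier results of these data known, and the part of the markers in the values of the hypoxia genes was not tested.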

How the data were processed

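Each of the 40 samples is a 2-colour array of cell-line RNA. The values are log2 ratios that the authors deposited already processed, 1 per probe and array, with 0 missing values; background correction, normalization and log base (read as log2) were not given in the sources used here. Probes were named through the platform annotation, which is old: 10169 of 15246 probes had 1 symbol, 4 several and 5073 were not listed. Probes of a gene were averaged, giving 9681 features. The small number of arrays limits the precision.

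The members, the pathway and marker lists and the rules for named genes were chosen with earlier results of these data known. In each comparison the 2 members with the smallest p and any member called are named with their statistics. Course means over days 2 to 4 (days 3 and 4 for lymphoma) entered lmFit and eBayes of limma 3.58.1 (R 4.3.3), lines weighted equally, with Benjamini-Hochberg adjustment over all features at 0.05. A second fit left out arrays with over 10% of probes beyond 3 and used single arrays with the course as a random block (consensus correlation 0.28 to 0.38). Days 1 and 5 that labels tie to no course (5 arrays) entered no fit of days 2 to 4. Other alternatives were array weights, median-centred arrays, turned signs of SKMM1 repeats 2 and 3, the median over probes, each probe as a feature, all labelled days and leaving out each course. The code was tested on simulated data.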

Additional observations from a re-analysis of the deposited data

Results flagged for a closer look

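ADM in SKMM1 repeat 1, at a course mean of -0.95, stood apart from the other myeloma courses, both with all arrays (gap over range 0.67 of 8 courses) and without wide arrays (0.75 of 7 courses). 14 sets of course means were checked this way. The usual chance rate of about 1 in 20 cannot be applied here, since these myeloma values helped choose the members. The courses also mix lines and hairpins. The ADM flags with and without wide arrays share most of their arrays and are not separate findings. They are given as a description, and nothing is read from them. NDRG1 was below 0 in every SKMM1 course (mean -0.98) and every KMS12 course (-0.28) and above 0 in both lymphoma courses (1.40). Its H929 courses were at -0.72, -0.22 and 0.12, and the SKMM1 courses include repeat 2 (-1.38), whose direction is not settled. PDK1 was below 0 in every H929 course (-1.15) and every KMS12 course (-0.35) and above 0 in both lymphoma courses (0.16). The share of all features with such patterns was not counted, so nothing is read from them. The difference between all myeloma lines and lymphoma did not pass in limma for either gene (NDRG1 adjusted p = 0.64, PDK1 adjusted p = 0.64); the difference of each single line from lymphoma was not tested. Without wide arrays the PDK1 pattern was lost, with the H929 courses at -0.26, -0.27 and 0.31 and the OCI-Ly7 course at -0.33.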

How the results depend on the processing

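Of 390 alternatives run on the named members' tested differences, 378 kept direction and side of the threshold, 7 passed in addition and 5 turned: NDRG1 in SKMM1 minus the other lines was 0.22 with the sign of repeat 2 turned and 0.15 on single arrays without SKMM1 repeat 1, ADM in that comparison was 0.008 without SKMM1 repeat 1, P4HA1 in myeloma minus lymphoma was -0.24 on single arrays without OCI-Ly19, and PDK1 in SKMM1 minus H929 was -0.078 without H929 repeat 1. On all arrays limma called 0 features in every comparison, so to keep the side of the threshold was to stay short of it. On single arrays without wide arrays it called 166 in the myeloma response, 1 in myeloma minus lymphoma and 5 in lymphoma; with array weights 295 in the myeloma response, 1381 between SKMM1 and the other lines and 2 against the control shRNA; with the sign of SKMM1 repeat 3 turned 1 in lymphoma. Added after seeing the data, single arrays without wide arrays gave 259, 1 and 233 (myeloma, myeloma minus lymphoma, lymphoma) with each probe its own feature, 241, 10 and 229 with arrays median-centred, and 2 in lymphoma with repeat 3 turned. Leaving out 1 course at a time, with all arrays or on single arrays without wide arrays, gave 0 to 329 calls in the myeloma response, 0 to 848 between SKMM1 and the other lines, 0 to 83 against the control shRNA, 0 to 4 between hairpins, 0 to 641 in myeloma minus lymphoma and 0 to 782 in lymphoma. It gave -1.07 to 0.15 for NDRG1 and -0.76 to 0.008 for ADM in SKMM1 minus the other lines, -0.24 to 1.61 for P4HA1 in myeloma minus lymphoma and -0.078 to 2.13 for PDK1 in SKMM1 minus H929. The cause was not tested. SKMM1 and H929 share repeat numbers 1 and 2, and same-numbered courses deviated in opposite directions (r = -0.60). Repeats 1 and 2 were centred on their mean within each line, so this is 1 value for both numbers. It also depends on the direction of SKMM1 repeat 2, which is not settled. It therefore cannot show whether the numbers pair the courses. With the replicate block 0 features were called between SKMM1 and H929, as without it (1 and 5 at an unadjusted p under 0.05), PDK1 was 0.71 against 1.03 without the block, and NDRG1 -0.88 against -0.51. The change per day has no value on course means without wide arrays, since 3 courses were left. Median-centring moved the median of all features in the myeloma response from -0.27 to -0.18, and leaving out wide arrays moved it to 0.017. Signal over background is unknown, so dim probes could not be left out.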

Other observations

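The labels tie 5 arrays of days 1 and 5 to no course. On SKMM1 day 1 SIAH2 was -0.55, NDRG1 -0.29 and ADM -0.67. On the 2 SKMM1 day 5 arrays, labelled repeats 1 and 2, SIAH2 was -0.86 and -0.53, NDRG1 -1.23 and 0.007, ADM 0.16 and -0.39 and HIF1A -1.04 and 2.63; the array labelled repeat 1 is wide. On H929 day 1, a wide array, SIAH2 was -1.76, NDRG1 -0.64 and PDK1 -6.41, and on H929 day 5 SIAH2 was -0.23, NDRG1 -0.64 and P4HA1 -0.57.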
